A study of Homo sapiens with 16 samples.

Results

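CBFA2T3 is a gene on human chromosome 16, and its bins were followed here in Hi-C contact maps of K562, a human chronic myeloid leukaemia cell line with erythroid features. Hi-C joins DNA ends that lie close together in the fixed nucleus and counts the joined pairs, called contacts. Chromatin was fixed with formaldehyde and cut with the restriction enzyme HindIII for 0.25, 1, 3 or 12 h before ligation, and each time had 2 replicate libraries. All 8 libraries came from the same cell line with no other treatment named in the labels, so digestion time was the only stated difference between groups. The series states that short digestions were meant to capture the domain boundaries that the enzyme reaches most easily.

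The members were the 6 bins of 20 kb that cover CBFA2T3 (88.941 to 89.044 Mb of chromosome 16, build hg19), out of 154795 bins in the second sequencing run. They were followed with their contacts in a window from 88000001 to 90300000, which holds 115 bins. The gene was chosen because the 100 kb from 89000001 had one of the largest gains of contacts by 12 h. Its members were thus selected on the contacts per library after 0.25 h and 12 h, and the size of that gain is a description here, with no test. Of the 6 bins, 4 were listed in all 8 files of the second run. The bin from 88960001 to 88980000 was listed in none, and the bin from 88980001 to 89000000 was listed in 7, the exception being 0.25 h replicate 2. An unlisted bin has no value and is not a count of 0. In the window 88 bins (76.5%) were listed in all files, against 90.4% of bins on chromosomes 1 to 22 and X. The number listed was 93 and 92 after both 0.25 h and 1 h, 96 and 95 after 3 h, and 98 in both libraries after 12 h.

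CBFA2T3 encodes ETO2, also called MTG16, a co-repressor of the ETO family that binds no DNA itself and is brought to genes by transcription factors. In blood progenitors and erythroid cells it works in the complex of TAL1, GATA1 and LDB1, where it holds back genes of late differentiation. The gene is also a fusion partner in acute myeloid leukaemias. Chromosomal DNA folds into domains whose interiors touch each other often, and a boundary is a stretch across which they seldom touch. In the order of the RefSeq annotation, TRAPPC2L and PABPN1L are the next protein-coding genes on the side of lower coordinates, and ACSF3 and CDH15 are the next on the side of higher coordinates.

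The promoter entry of CBFA2T3 in RefSeq is printed because HindIII cuts only at its recognition site AAGCTT, and such cuts make the ends that are joined here. Its bearing on the contacts of the bins was not tested. It covers 300 bases on the minus strand of build GRCh38.p14, chr16:88941301-88941600, of which 250 precede the start and 50 follow it. These coordinates are not those of hg19, so they were not placed in any of the gene's bins. This start lies inside the gene's full span in the same assembly, so it belongs to a transcript shorter than the longest one. Capitals mark the GC box, written GGGCGG or, on the other strand, CCGCCC.
CBFA2T3 promoter: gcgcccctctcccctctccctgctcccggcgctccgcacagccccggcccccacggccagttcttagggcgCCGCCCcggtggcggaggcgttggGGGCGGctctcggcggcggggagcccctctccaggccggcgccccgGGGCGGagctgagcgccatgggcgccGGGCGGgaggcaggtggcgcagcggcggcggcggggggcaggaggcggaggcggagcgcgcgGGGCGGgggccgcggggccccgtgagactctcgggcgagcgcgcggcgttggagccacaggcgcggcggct

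The sequence was 83% G and C, above 99.2% of the 35116 promoters in the table, whose median was 58.7%. It held 46 CG dinucleotides and 5 GC boxes. A GC box on either strand was found in 45.0% of all promoters of this length. AAGCTT, which reads the same on both strands, was absent from it, and 5.84% of all promoters held it. Restriction sites in the rest of the gene were not analysed here, since no genome of the build was used.

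The second-run files held between 62777251 and 176412222 contacts each, and those of the first run, which had 50 kb bins, between 8918994 and 20237350. Contacts between different 20 kb bins numbered 91016801 and 47557035 in the 0.25 h libraries and 155827674 and 135832235 in the 12 h libraries, so depth rose with digestion time within each replicate number. The label was checked by the BCR-ABL1 fusion that K562 carries. The pair of 200 kb bins at BCR and ABL1 held 26693 contacts over all libraries and was the top pair between chromosomes 9 and 22 in 8 of 8 libraries, where the median pair with any contact held 1. None of the 10 bins of 9p21 that K562 lacks was listed in any file.

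The bins of CBFA2T3 were poor in contacts at all times and richest after 12 h. The median tested bin of the genome held 12.9 contacts per 1000000 contacts of its library, written CPM below. Averaged over libraries, the 4 bins stood above only 0.908%, 3.63%, 5.92% and 4.64% of tested bins, in order of coordinate. This order of levels is not adjusted for the number of HindIII sites in a bin, which was not analysed here.

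The bin from 89020001 to 89040000 had the highest level. It held 247 and 124 contacts after 0.25 h, 308 and 183 after 1 h, 396 and 268 after 3 h, and 843 and 715 after 12 h, for replicates 1 and 2. Scaled to library depth these were 2.66 ± 0.0752, 3.00 ± 0.184, 3.16 ± 0.229 and 5.34 ± 0.103 CPM (mean ± SD, n = 2 each). Both 12 h libraries lay above all 6 others, and the libraries of 1 h and 3 h overlapped.

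The bin from 89040001 to 89060000 takes in the upper end of the gene, which is its 5′ end because CBFA2T3 is read from the minus strand. Its contacts were 223 and 121 after 0.25 h, 261 and 185 after 1 h, 330 and 239 after 3 h, and 671 and 618 after 12 h. The scaled levels were 2.50 ± 0.0666, 2.78 ± 0.176, 2.72 ± 0.0669 and 4.43 ± 0.172 CPM (n = 2 each). In this bin too the first 3 times lay close together and 12 h stood apart.

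The bin from 89000001 to 89020000 held 207 and 99 contacts after 0.25 h, 218 and 140 after 1 h, 296 and 231 after 3 h, and 657 and 535 after 12 h. Its levels were 2.18 ± 0.136, 2.21 ± 0.0141, 2.53 ± 0.0715 and 4.08 ± 0.196 CPM (n = 2 each). Here both 3 h libraries exceeded both 1 h libraries, while 0.25 h and 1 h overlapped.

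The bins towards the 3′ end were lower. The bin from 88940001 to 88960000 held 122 and 64 contacts after 0.25 h, 124 and 87 after 1 h, 181 and 129 after 3 h, and 369 and 343 after 12 h. That is 1.34 ± 0.00378, 1.31 ± 0.0738, 1.48 ± 0.0532 and 2.45 ± 0.111 CPM (n = 2 each). The bin from 88980001 to 89000000, which was not tested, had the lowest level of the 5 with values. It held 86 contacts in the 0.25 h library that lists it, 95 and 63 after 1 h, 128 and 92 after 3 h, and 279 and 238 after 12 h, the last being 1.77 ± 0.0271 CPM (n = 2).

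**Figure D1:**
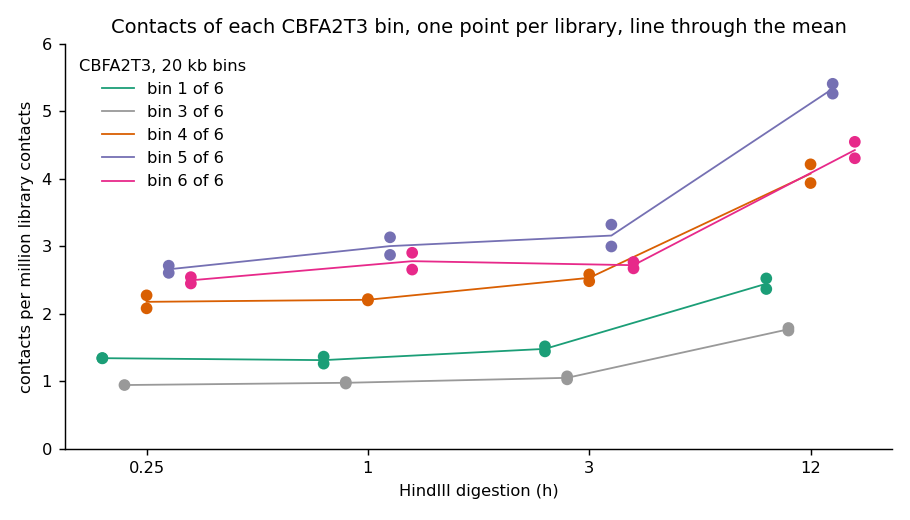
Contacts per 1000000 library contacts (CPM, vertical axis) of the 5 CBFA2T3 bins with values against HindIII digestion time in hours (horizontal axis, times spaced evenly). Each point is 1 library, lines join the means, and bins are numbered by coordinate. The bin from 89020001 to 89040000, bin 5, runs from 2.66 after 0.25 h to 5.34 after 12 h, and in all 5 bins the 12 h libraries lie highest.

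As a description of the contrast by which the gene was chosen, the log2 ratio of 12 h to 0.25 h was 0.86 (SE 0.12), 0.90 (SE 0.097), 1.00 (SE 0.090) and 0.82 (SE 0.092) for the 4 bins in order of coordinate. The folds ran from 1.77 to 2.00, with a median log2 fold change of 0.88. Over all 137198 tested bins the median was 0.05, and 34.9% were called higher after 12 h by limma at an adjusted p of 0.05. Bins with few contacts gained more throughout the genome. The 20 classes of bins by level had medians between -0.16 and 0.39. The classes of the 4 bins had medians of 0.39, 0.39, 0.31 and 0.39, and each bin stood above 93.9%, 95.6%, 99.8% and 92.2% of its own class. Most of the gain lay in the last step, since the log2 fold changes from 3 to 12 h were 0.72, 0.68, 0.76 and 0.70. From 0.25 to 1 h they were -0.03, 0.02, 0.17 and 0.15. Library depth also rose with time within each replicate number, and the window had the most listed bins after 12 h. Restricted to contacts between bins listed in all files, the median log2 fold change was 0.84, and with contacts between chromosomes only it was 0.58. The part of depth in the gain was not tested.

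With both runs added and 100 kb bins, the interval from 89000001 to 89100000 had 979 and 481 contacts after 0.25 h and 3116 and 2776 after 12 h. This is a log2 fold change of 0.93 (SE 0.060), the ninth highest in rank (9 of 27756 bins). A large gain was the ground for choosing the gene, so the high rank is no separate result. With contacts between bins listed in all files only, a choice made after seeing the data, it was 0.80 (SE 0.051) and ranked 7. In the first ranking, the bins ranked 8 and 10 had 0.96 (chromosome 19 from 14400001) and 0.92 (chromosome 19 from 1500001). In the first run alone, 1 bin of 50 kb over the gene, from 89000001 to 89050000, was listed in all files. It held 37 and 29 contacts after 0.25 h and 174 and 137 after 12 h, with 47, 53, 64 and 64 in the libraries of 1 h and 3 h. The titles of the second run repeat the times and replicate numbers of the first and mark a second sequencing. They do not state whether the same libraries were used, and the runs are not treated as independent replicates.

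Between 3 h and 1 h, libraries that played no part in choosing the gene, no change was called. The log2 fold changes of the 4 bins were 0.17, 0.20, 0.07 and -0.03, and limma called 0 of 4 (lowest adjusted p = 0.843, 0 at an unadjusted p under 0.05). With the replicate number as a block it also called 0, with 1 at an unadjusted p under 0.05. In the background 0% of 137198 bins were called in this comparison, and 8043 had an unadjusted p under 0.05. Summed over the 4 bins, with a contact between any of them counted once, CPM were 8.94 ± 0.124 after 1 h and 9.45 ± 0.165 after 3 h (n = 2 each). The libraries did not overlap, but the exact two-sided permutation p of 0.333 is the smallest that 2 against 2 allows. The same sum was 8.32 ± 0.137 after 0.25 h and 15.5 ± 0.0110 after 12 h, 1.86 times the level after 0.25 h. It rested on 391 contacts in the shallowest library (exact 95% Poisson interval 353 to 432) and 2415 in the deepest (2320 to 2513). Such intervals cover counting error only, and they take each contact as an independent molecule. Amplified reads need not be independent molecules, and this was not tested.

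The gain of the gene's bins was spread over all distances. By distance, CPM is scaled to all contacts of a library, those inside a bin included. Contacts with bins up to 100 kb away went from 0.629 ± 0.236 to 1.95 ± 0.0161 CPM between 0.25 and 12 h, a ratio of 3.10 (n = 2 each). The replicates differed widely here, with ratios of 2.44 and 4.25, on 91 and 29 contacts after 0.25 h. These counts include the bin from 88980001, which 0.25 h replicate 2 does not list. With bins listed in all files only, the ratios were 2.28 and 3.10 and that of the means was 2.63. Contacts at 100 to 500 kb went from 1.41 ± 0.0343 to 3.35 ± 0.0815 CPM, a ratio of 2.38 in both replicates. With bins listed in all files only, replicate 1 had 2.40 and replicate 2 had 2.34, so near contacts had the higher ratio in replicate 2 alone. At 0.5 to 2 Mb the ratio was 1.99, at 2 to 20 Mb 1.53, beyond 20 Mb 2.51, and with other chromosomes 1.90. For the library as a whole, the corresponding ratios were 1.07, 1.21, 1.17, 1.05, 1.24 and 1.23. All of these are descriptions of the contrast that chose the gene.

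Contacts inside a single bin were a small part of the contacts of CBFA2T3. They made up 4.33% ± 0.562 of all contacts of the 4 bins after 0.25 h, 3.88% ± 0.279 after 1 h, 3.64% ± 0.560 after 3 h and 3.05% ± 0.270 after 12 h (n = 2 each). In whole libraries that share was 22.3% ± 2.72 after 0.25 h and 11.6% ± 0.126 after 12 h. The library shares count a contact between 2 bins once, although it belongs to both bins. They therefore run higher than the gene's measure would, and the sizes of the shares of gene and library are not compared. In CPM, the gene's self contacts had a ratio of 1.47 between 12 and 0.25 h, on 54 and 143 contacts, while those of the library had 0.519. The bin from 89020001 to 89040000 held more of them than any other of the 4 in each library, with 22 of 38 and 8 of 16 after 0.25 h and 38 of 81 and 33 of 62 after 12 h. The direction was not the same in every setting. In 100 kb bins with both runs added the share was 8.72% after 0.25 h and 9.32% after 12 h, and in the 50 kb bin of the first run it was 13.3% and 6.88%. These settings differ in sequencing run, bin size and the stretch covered, whose parts were not tested.

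**Figure D2:**
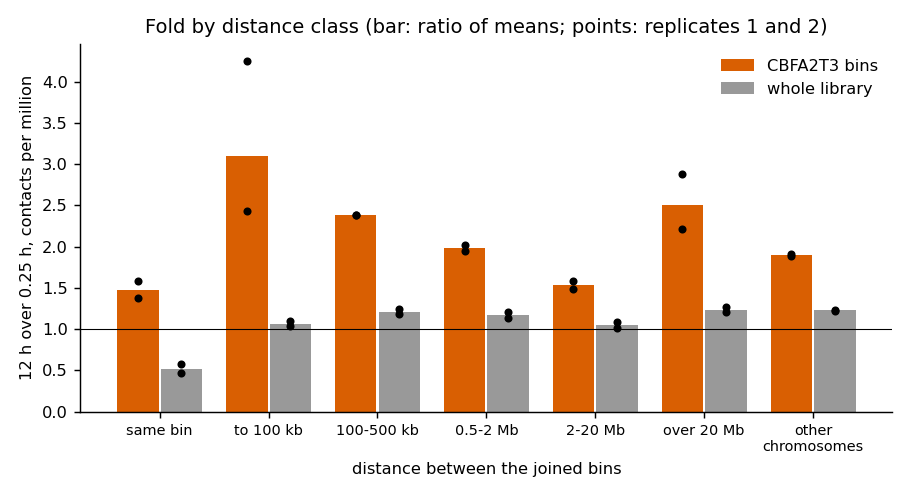
Ratio of CPM after 12 h to those after 0.25 h (vertical axis, linear from 0) by the distance between the joined bins (horizontal axis), for the 4 CBFA2T3 bins and for whole libraries. Bars are ratios of the means of 2 libraries and points are the ratios within replicates 1 and 2. The bars of the gene exceed those of the library in all 7 classes, and the points spread most at distances up to 100 kb (2.44 and 4.25).

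The bins on both sides of the gene rose as well. Of 84 flanking bins of the window listed in all files, limma called 80 higher after 12 h than after 0.25 h and 0 lower, 95.2%, where 34.9% of all tested bins were called higher. The flanking median log2 fold change was 0.60. On the rest of chromosome 16, 72.0% of 3545 bins were higher and 3.02% lower, with a median of 0.25. The window was placed around a gain seen in this same contrast, so these counts describe the window and are not independent of that choice. Without the 1 tested flanking bin inside the chosen 100 kb the count was 79 of 83. With the contacts of the gene's own bins left out it stayed at 80 of 84. Counting contacts between chromosomes only, 30 of 84 were called higher, against 3.67% of all tested bins.

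Flanking bins were also poor in contacts, and 78 of 84 lay above the median log2 fold change of their own level class. The median of those class medians was 0.31. The side below the gene had 36 of 37 bins called and a median of 0.56, and the side above it had 44 of 47 and a median of 0.60. Within 200 kb of the gene 14 of 14 were called, with a median of 0.67.

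The flanking bin with the largest rise lay from 88560001 to 88580000. It held 82 and 44 contacts after 0.25 h and 285 and 267 after 12 h (log2 fold change 1.04, SE 0.15, limma adjusted p = 3.48e-06). The bin from 89200001 to 89220000, on the side of ACSF3 and CDH15, went from 259 and 107 to 772 and 743 contacts (1.04, SE 0.11, limma adjusted p = 8.49e-08). The bin from 89960001 to 89980000 went from 94 and 61 to 381 and 307 (1.02, SE 0.14, limma adjusted p = 1.95e-06). The others named by size of change lay from 88700001 to 88720000 (log2 fold change 0.93) and from 89580001 to 89600000 (0.90). Scaled to depth, 81 of the 84 flanking bins were higher after 12 h without overlap between the libraries of 0.25 and 12 h, where 46.8% of all tested bins were. The window was chosen in this contrast, and the bins above were named by the size of their change in it. Nothing is therefore read from that count or from the p-values of the named bins. Several flanking bins thus had log2 fold changes as large as those of the gene, which ran from 0.82 to 1.00.

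The 4 flanking bins that were not called started at 88180001, 89420001, 90140001 and 90240001. The bin from 89420001 to 89440000 was close in level to the median tested bin of the genome, with 11.4 and 12.95 CPM after 0.25 h and 12.2 and 12.3 after 12 h (log2 fold change 0.01, SE 0.057, limma adjusted p = 0.890). The 0.25 h libraries enclosed both 12 h libraries. The others had log2 fold changes between 0.11 and 0.25.

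**Figure D3:**
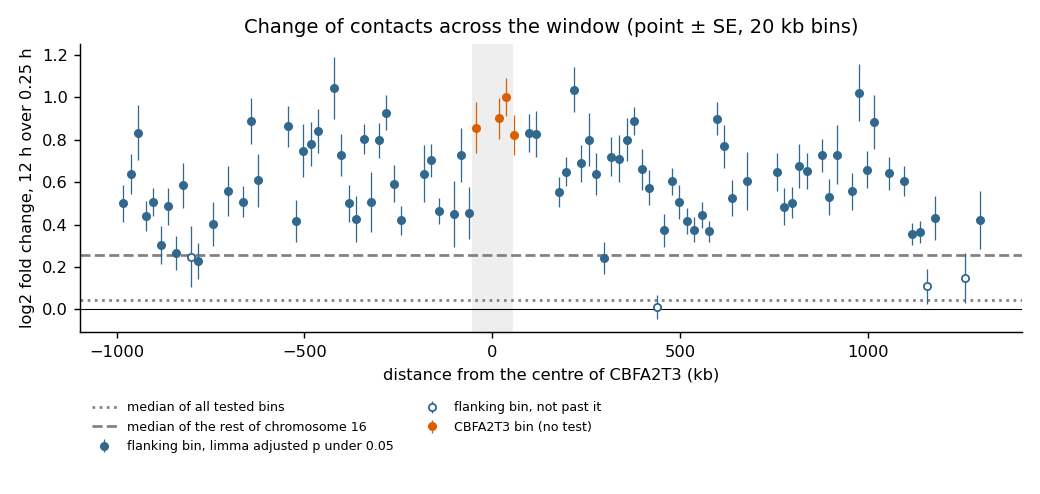
Log2 fold change of contacts after 12 h over 0.25 h (vertical axis) of 20 kb bins against their distance from the centre of CBFA2T3 in kb (horizontal axis). Points are fitted values with their SE, open points are flanking bins not past the threshold, the shaded band is the gene, and horizontal lines mark medians of other bins. All 80 filled flanking points lie above the genome median of 0.05, and the 4 gene bins lie between 0.82 and 1.00.

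Within the window CBFA2T3 had more contacts on the side of its 5′ end. Partner contacts were measured as the balanced signal between the gene's 4 bins and other bins, divided by the mean of chromosome 16 at the same distance. Over 400 kb above the gene this observed over expected ratio was 1.65 ± 0.212, and over 400 kb below it was 0.929 ± 0.119 (n = 8 libraries of all times). The ratio above exceeded that below in 8 of 8 libraries, with a mean log2 difference of 0.83 (SD 0.23). These sides were chosen after the profile was seen, and no test was made. The counts behind them were 1672 contacts above and 744 below. In the first run, on 150 contacts above and 36 below, the ratio above was higher in 6 of the 7 libraries with a value. The exception was 1 h replicate 1 (log2 difference -0.29). The difference was only 0.07 in 0.25 h replicate 2 (5 contacts above, 2 below) and in 12 h replicate 2 (27 and 12).

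By time, the ratio above was 1.67 ± 0.00888 after 0.25 h, 1.94 ± 0.188 after 1 h, 1.47 ± 0.0839 after 3 h and 1.51 ± 0.0042 after 12 h (n = 2 each). Below the gene it was 0.825 ± 0.00837, 1.02 ± 0.146, 0.936 ± 0.194 and 0.939 ± 0.0536 (n = 2 each). The lean towards higher coordinates was therefore present after 0.25 h, when the gene had few contacts, and after 12 h.

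Each of the 4 bins leaned this way in the second run when its sides were counted from the bin itself. The 400 kb on either side of a bin then take in other bins of the gene, so contacts within the gene are included, unlike in the sums above. With all libraries added, the log2 ratio of above to below was 0.81, 0.67, 0.66 and 0.31 in order of coordinate. Of 3604 bins of chromosome 16 measured the same way, 5.97%, 8.82%, 9.24% and 25.6% had a higher ratio. The contacts above and below numbered 233 and 169, 572 and 180, 784 and 373, and 479 and 420. The bins are not ranked by these values, because the gene lies mostly above the bin at the 3′ end and below the bin at the 5′ end.

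The excess was concentrated in the 200 kb from 89100001. The block from 89100001 to 89200000 had an observed over expected ratio of 1.81 ± 0.164 over the 8 libraries, on 657 contacts, with a range of 1.67 to 2.18. The block from 89200001 to 89300000 had 2.38 ± 0.588, on 569 contacts, and ranged from 1.74 to 3.67. In both blocks every library exceeded 1. The next block, from 89300001, had 1.07 ± 0.214, and the one from 89400001 had 0.635 ± 0.314. A further rise stood at the block from 89600001 to 89700000, with 1.83 ± 0.476 and all libraries above 1, but on 62 contacts. Every block from 88000001 to 88900000 had a mean below 1, between 0.723 and 0.956.

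Single partner bins at 100 kb or more from the gene are parts of the blocks above, so they add no separate support. The bins with the highest means were those from 89220001 (2.57 ± 0.992, with 43 and 28 contacts in the 12 h libraries), from 89260001 (2.54 ± 0.971, 113 contacts) and from 89240001 (2.54 ± 1.11, 63 contacts), n = 8 each. All libraries were above 1 in these bins. The bins from 89660001 (2.34 ± 1.44) and from 89200001 (2.24 ± 1.07, 117 contacts) followed, and the former rested on 14 contacts, with 0 in 1 library. The bins with the lowest means, those from 89960001, 88160001, 88280001, 88240001 and 89800001, lay between 0.146 and 0.533. They held 2 to 8 contacts over all libraries, so their order was not resolvable at this depth. Of the 78 bins at this distance 37 had a mean above 1, and the median was 0.953.

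**Figure D4:**
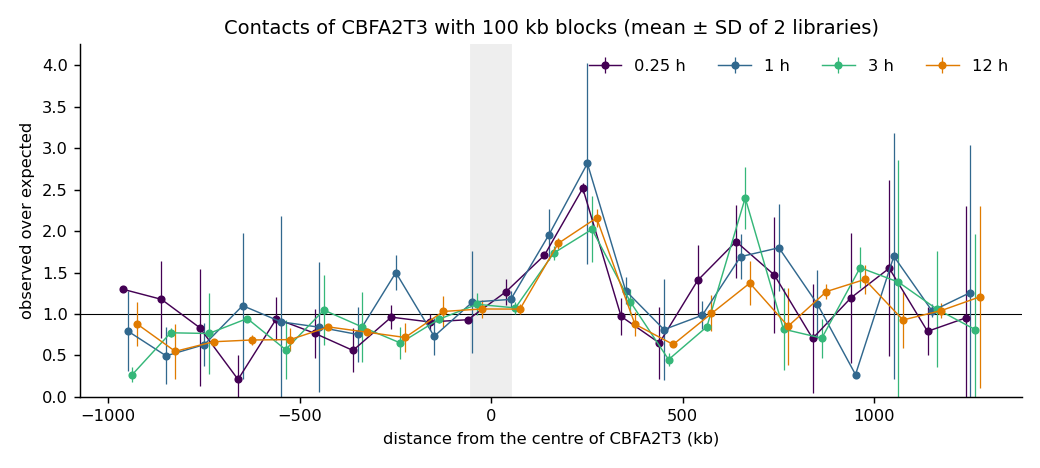
Observed over expected balanced signal between the CBFA2T3 bins and 100 kb blocks (vertical axis) against the distance of the block from the gene's centre in kb (horizontal axis), by digestion time. Points are means and bars the SD of 2 libraries, the band is the gene, and points of a block are set slightly apart. The blocks with overall means of 1.81 and 2.38 stand above 1 at all 4 times, and bars are wide in many other blocks.

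The insulation score rose through the gene and had minima on both sides of it. The score is the log2 of the mean balanced signal across a bin, in a square that reaches 200 kb either way, over the mean of the chromosome, so that low scores mark bins across which little contact is made. At the 3′ end the bin from 88940001 had -0.16 ± 0.17 after 0.25 h, -0.38 ± 0.23 after 1 h, 0.12 ± 0.55 after 3 h and 0.14 ± 0.07 after 12 h (n = 2 each). At the 5′ end the bin from 89040001 had 0.79 ± 0.06, 1.04 ± 0.14, 0.71 ± 0.04 and 0.81 ± 0.02. Averaged over libraries, this last bin scored above 97.7% of bins of chromosome 16, and the first above 53.3%.

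The nearest minima lay on either side. With a prominence of at least 0.2 the score had 9 minima in the window, of which 4 were below 0. One was 80 kb below the gene's bins, from 88840001 to 88860000, with a score of -0.37 (SD over 8 libraries 0.20) that ranged from -0.74 to -0.14. Another was 240 kb above them, from 89300001 to 89320000, with -0.51 (SD 0.10) and a range of -0.63 to -0.33. The others, from 89620001 and from 89660001, had -0.64 and -0.71. All 8 libraries were below 0 at each of these 4 minima. The stretch between the nearest pair holds the gene and both blocks from 89100001 to 89300000, while the block from 89600001, with a partner ratio of 1.83, lies beyond it.

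These scores did not change past the threshold with digestion. Of 79 flanking bins with a score, limma called 0 between 12 and 0.25 h, and 9 had an unadjusted p under 0.05. In the background 0% of 135875 bins were called, and 10725 had an unadjusted p under 0.05. Without 0.25 h replicate 1, which leaves 1 library at that time, the bins from 89740001 and 89760001 had differences of 0.57 and 0.97, both higher after 12 h. The 0.25 h scores of replicates 1 and 2 were -0.45 and -0.77 in the first of these bins. In the second they were -0.11 and -0.75. Both differences therefore rest on the lower score of 0.25 h replicate 2 alone, and nothing is read from them. Without balancing 75 of 79 were called, all higher after 12 h, where 25.1% of all bins were; such scores also hold the change in coverage. Between 3 h and 1 h, limma called 0 of the 4 gene bins, against 0% of all bins. An unadjusted p under 0.05 was found in 2 gene bins and in 6501 of all 135875 bins. The 2 gene bins were that from 88940001 (difference 0.50, SE 0.21, limma adjusted p = 0.995) and that from 89040001 (-0.32, SE 0.069, limma adjusted p = 0.943).

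**Figure D5:**
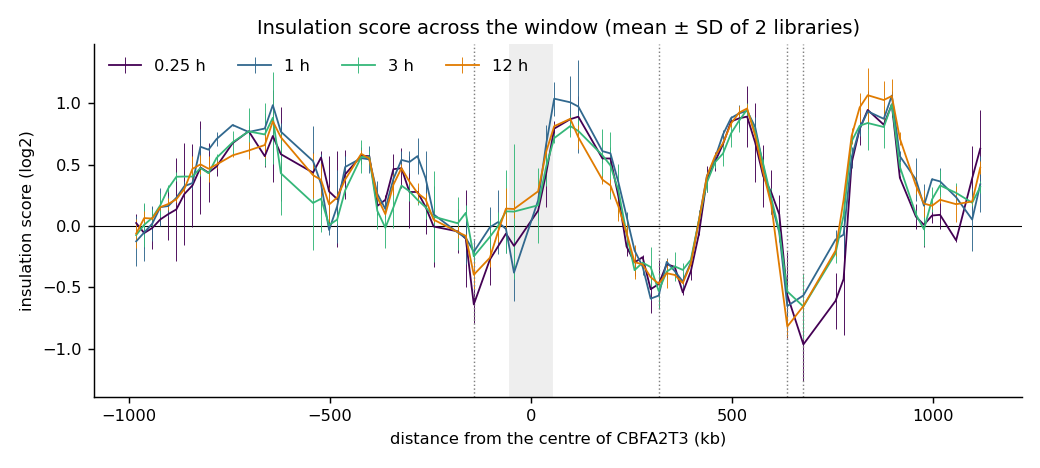
Insulation score in log2 units (vertical axis) of 20 kb bins listed in all files against distance from the centre of CBFA2T3 in kb (horizontal axis), by digestion time. Lines are means and bars the SD of 2 libraries, the band is the gene, and dotted lines mark the 4 minima below 0. The lines of the 4 times have a like course and separate in places, such as the bin at the 3′ end of the gene (-0.38 to 0.14). They rise through the gene and fall to -0.51 at the minimum 240 kb above its bins.

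CBFA2T3 made a large part of its contacts with other chromosomes. That share of contacts between different bins was 37.9% ± 1.89 after 0.25 h, 35.8% ± 0.284 after 1 h, 36.3% ± 0.756 after 3 h and 33.6% ± 0.247 after 12 h (n = 2 each). Over all tested bins it was 12.5% ± 0.599 after 0.25 h and 13.5% ± 0.115 after 12 h, and on the rest of chromosome 16 it was 18.8% ± 1.01 and 19.05% ± 0.155. The 4 bins stood above 99.6%, 99.6%, 99.3% and 99.3% of tested bins, in order of coordinate. The flanking bins had 30.4% ± 2.16 after 0.25 h and 28.8% ± 0.470 after 12 h, so that the window as a whole was rich in such contacts. The lowest library of the gene, at 33.5%, was above the highest of the flanking bins as a set, at 31.9%. Single flanking bins ran from 22.1% to 56.1%, so at least 1 exceeded the gene bins, which ran from 34.4% to 38.2%.

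Among these contacts, several gene-rich chromosomes were over-represented as partners. The number with each chromosome was divided by that expected from the contacts all other chromosomes make between them, with all libraries added. The ratio was 3.31 for chromosome 19, on 163 contacts, and libraries ranged from 2.04 to 4.15. It was 2.38 for chromosome 17, 2.22 for chromosome 22 and 1.75 for chromosome 20. In each of these 4 chromosomes all libraries were above 1. Chromosome 11, with 9.64 protein-coding genes per Mb against 8.79 for chromosome 22 and 8.52 for chromosome 20, had a ratio of 1.25, and libraries ranged from 0.839 to 1.97. The lowest ratios were 0.579 for chromosome 4, 0.644 for chromosome 13 and 0.686 for chromosome 18.

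Chromosomes 17, 19 and 22 together took 12.3% and 10.1% of the gene's contacts with other chromosomes after 0.25 h, 18.5% and 15.4% after 1 h, 12.4% and 13.5% after 3 h, and 16.8% and 15.7% after 12 h. The expected share was between 5.56% and 6.24%. These chromosomes had the highest ratios above in the same contacts, so their excess over the expected share repeats that result. The shares after 0.25 h rested on 36 of 292 and 16 of 159 contacts. Both 0.25 h libraries lay below all 6 others, by a small margin over 3 h replicate 1, and the 3 h libraries lay below those of 1 h and 12 h. These differences were not tested. Across the 22 other chromosomes Spearman's rho between the ratio and protein-coding genes per Mb was 0.866, a description over chromosomes that share the same libraries. The flanking bins had 3.38, 2.52 and 2.10 for chromosomes 19, 17 and 22, and a rho of 0.826, all close to the gene. The rest of chromosome 16 had 1.57, 1.38 and 1.23, and a rho of 0.571.

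Bins elsewhere in the genome had profiles over the 8 libraries like that of the chosen 100 kb. Candidates had to vary between libraries, and the profiles include the 0.25 h and 12 h values that chose the gene, so high correlations are partly built in. Of 1040 bins of 100 kb outside the window whose range over libraries was at least 0.5 times as large, 789 had a Pearson's r above 0.95 with it on log2 CPM, and the median r was 0.971. The highest r, 0.998 over 8 libraries, was with chromosome 7 from 700001 to 800000. It was followed by chromosome 1 from 11000001, chromosome 19 from 13600001, chromosome 8 from 145900001 and chromosome 14 from 106300001. Their log2 fold changes after 12 h against 0.25 h were 0.65, 0.64, 0.59, 0.52 and 0.77. The chosen bin, selected for this contrast, had 0.93.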

How the data were processed

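Each deposited file lists pairs of bins with a balanced contact signal, which the authors made with HiC-Pro 2.11.1 and Bowtie2 2.3.4.1 on hg19, per the submitters' processing notes. Numbers of bins identified 20 kb bins in the second run. The filter behind unlisted bins is not given in the sources used here. The signal was turned back into whole contacts, all values of all 16 files falling within 0.01 of whole numbers, with 100% of 137480 simulated pairs recovered.

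Coverage was log2 of CPM, contacts between different bins per 1000000, (pseudocount 0.5), fitted over all bins and the 8 second-run libraries with limma 3.58.1 (R 4.3.3) and Benjamini-Hochberg adjustment at 0.05. On simulated data for 12 h against 0.25 h, 100% of 100 bins changed 1.5-fold and of 100 changed 2-fold were recovered over 137198 bins, with 9 false calls. The changed bins were drawn at random from bins of all levels with an assumed spread. Recovery at levels as low as those of the gene was therefore not shown. Insulation needed 30% of pairs present, a limit set after the listed bins were seen. The 8 libraries are replicates by their titles only, so p-values measure the spread between these libraries, which may be technical. Differences between replicates 1 and 2 were weakly correlated between times (0.110 to 0.254), and the source of this was not tested. The main fit had no replicate block, and a block was an alternative. The members and lists were chosen with earlier results of these data known. Named features were all gene bins, the 5 flanking bins with the largest called change per direction, 5 partner bins at each end, and the 5 most similar 100 kb bins. First-run signal, in 50 kb bins, served as an alternative. Python 3.11.15 was used.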

Additional observations from a re-analysis of the deposited data

How the results depend on the processing

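With the replicate block the counts of called gene and flanking bins between 3 h and 1 h and between 12 and 0.25 h were the same, while over all bins coverage calls went to 51329 higher and 31573 lower, and insulation calls between 12 and 0.25 h from 0 to 3, none in the window. For coverage and insulation, 0 gene bins were called between 3 h and 1 h under every alternative run. Flanking bins called higher at 12 h made up 95.2% in the main fit, where 34.9% of all tested bins were called higher. With contacts between chromosomes only the flanking share was 35.7%, where 3.67% of all tested bins were called higher. Under the other alternatives the flanking share lay between 76.5% and 100%, and that of all tested bins between 16.97% and 55.75%. In the first run the flanking share was 76.5%, where 16.97% of all tested bins were called higher. In 100 kb bins with both runs added these shares were 100% and 37.65%. With contacts inside a bin included they were 94.05% and 55.75%, so the distance between the shares depended on the setting. Scaling moved the split of all bins, with 47854 higher and 28713 lower as reported and 37943 and 38542 under median-of-ratios scaling. Counting contacts inside a bin shifted the median of all bins from 0.05 to 0.17, and 2 flanking bins, from 89420001 and 89880001, were then lower at 12 h (log2 fold changes -0.58 and -0.48). The median log2 fold change of the gene bins, 0.88, was 0.83 under median-of-ratios scaling, 1.02 in cis, 0.58 between chromosomes, 0.84 between bins listed in all files, 1.05 with contacts inside a bin, 0.83 with a pseudocount of 5, 1.10 in the first run and 0.93 in 100 kb bins, or 0.80 there with bins listed in all files only (0.86 to 0.91 without each library). Insulation calls on flanking bins, 0, became 75 without balancing, where 25.1% of all bins were called. They also changed without 0.25 h replicate 1, a fit in which that time rests on replicate 2 alone. The log2 difference between the sides, 0.83, was 1.31 without balancing and 0.78 to 0.87 without each library; the first run gave no mean, since 0.25 h replicate 1 had 0 contacts below the gene, and its other 7 libraries lay between -0.29 and 2.47. Self contacts were 6.88% at 12 h and 13.3% at 0.25 h in the first run, and 9.32% and 8.72% in 100 kb bins, against 3.05% and 4.33% (2.86% to 3.25% and 3.93% to 4.73% without each library). The cause of these shifts was not tested. Bins of other sizes hold other stretches around the gene. The planned edgeR normalization and test were left out, as count tests were kept for files deposited as counts, although whole contacts were recovered here. Median-of-ratios scaling, bins listed in all files and the gene's contacts left out were chosen after seeing the data. Depth limits single partner bins and the farther 100 kb blocks, the thinnest of which held 8 contacts.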
